A study of Mus musculus with 6 samples.

Results

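The genes described here are 4 cadherins (Cdh1, Cdh2, Cdh13 and Cdh17), 3 catenins of the adherens junction (Ctnna1, Ctnnb1 and Ctnnd1) and the adhesion molecule Epcam. They were taken by name, with earlier results of these data known. These 8 of the 14254 genes with values were all found and all passed the filter on low values. RNA was sequenced from organoids, clusters of tumour cells grown in gel, of KPF_5.3G, a line from pancreatic ductal adenocarcinoma (PDAC) of the mouse. There were 3 control samples, labelled shCtrl with the genotype WT, and 3 samples with a lentiviral short hairpin RNA against Jag1, labelled shJag1_3 with the genotype Jag1 knockdown. Jag1 encodes a membrane ligand of Notch receptors, and the study asked what it does in CD9-high tumour-initiating cells that express epithelial and mesenchymal genes together. Both groups share the line and the medium, which held Noggin, R-spondin-1, FGF-10, EGF, gastrin, nicotinamide, N-acetylcysteine, B27 and Primocin. The knockdown rests on 1 hairpin in 1 line, and the promoter that drives the hairpin is not given in the sources used here. The series' design text calls the samples biological replicates without saying what separates them. In fits without a term for the replicate number, p-values measure the spread between these 3 samples a group. In limma and edgeR fits with that term, they measure the spread left after differences between replicate numbers are removed. DESeq2 takes its p from a normal distribution, which does not allow for how few samples are left to measure that spread. With the term DESeq2 called 1000 genes, and limma and edgeR called 2 each.

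Cadherins are calcium-dependent adhesion proteins that bind their like on the neighbouring cell. The cytoplasmic tail of the classical cadherins, E-cadherin (Cdh1) and N-cadherin (Cdh2), holds p120-catenin (Ctnnd1) and beta-catenin (Ctnnb1), and alpha-catenin (Ctnna1) links beta-catenin to actin. Beta-catenin is also the transcriptional partner of TCF factors in Wnt signalling. Loss of E-cadherin and gain of N-cadherin is a textbook mark of the epithelial-mesenchymal transition (EMT), and cells in a hybrid state hold both. T-cadherin (Cdh13) is anchored by a lipid and has no cytoplasmic tail, while LI-cadherin (Cdh17), a cadherin of intestinal epithelium, has a short tail that binds no catenin. Epcam is a surface glycoprotein of simple epithelia and carcinomas.

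Libraries held 22268997 to 35172593 reads. Values are normalised read counts, read counts divided by a size factor per library, given as mean ± SD (n = 3), and log2 changes are knockdown minus control. Libraries with the replicate number 1 stood apart before any result is read. Control 1 correlated across genes at r = 0.99 with knockdown 1 and at r = 0.91 with control 2. Libraries are therefore also compared in pairs of the same replicate number, whose meaning the labels leave out. Control 2 correlated at r = 0.9456 with knockdown 2 and 0.9489 with knockdown 3, and control 3 at 0.9437 and 0.9535. These values set replicate 1 apart but do not settle how libraries 2 and 3 pair. The hairpin's target, Jag1, had 412, 983 and 847 normalised counts in controls 1, 2 and 3, against 226, 321 and 557 in knockdowns 1, 2 and 3. It was lower in each pair, but the groups overlapped, and limma, the main test, gave an adjusted p of 0.691 (DESeq2 with a term for the replicate number, 0.0063). Of 8 epithelial markers fixed for the label (Krt7, Krt8, Krt18, Krt19, Sox9, Muc1, Cldn4 and Esrp1) all 8 had values, and they summed to 160354 to 228074 normalised counts in controls and 215270 to 571511 in knockdowns. Values were held for 2 of 10 fibroblast, 3 of 8 endothelial, 1 of 8 immune and 1 of 9 neural or endocrine markers, and the other markers are not analysed here. The fibroblast markers, Pdgfra and Pdgfrb, summed to at most 45.5 normalised counts in any library. The immune marker, Cd68, stood at 98.6 to 136 normalised counts in controls, against 117 to 988 in knockdowns, and the neural marker, Ncam1, at no more than 41.8 in any library. Their part in the results was not tested.

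The cadherins moved in opposite directions. By DESeq2 with this replicate term, Epcam and Cdh17 rose and Cdh2 and Cdh13 fell, while Cdh1 and the 3 catenins did not pass. The counts were thus 2 higher of 8, where 4.54% of all 13997 genes tested were called higher, and 2 lower, where 2.6% were called lower. These 4 calls were made by this fit and not by the main test, limma without that term. Limma called 0 of the 8 and 0.0% of all genes, with adjusted p from 0.604 to 0.925 for the 8 genes and 0.604 the lowest of all genes. At an unadjusted p below 0.05 limma had 2 of the 8, Cdh2 and Epcam, against 7.29% of all genes. EdgeR called 0 of the 8 without the replicate term (2 of 8 at an unadjusted p below 0.05, against 7.29% of all genes) and 0 with it, where 0.0% and 0.0143% of all genes were called. Limma with the term also called 0 of the 8 and 0.0143% of all genes (6 of 8 at an unadjusted p below 0.05, against 19.5% of all genes). In edgeR and limma with the term the lowest adjusted p of the 8 were 0.155 and 0.136. The groups did not overlap for 4 of the 8 genes, Cdh1, Cdh2, Ctnnd1 and Epcam, against 11.7% of all genes. Of these 3 were higher and 1, Cdh2, lower in the knockdown, where 6.29% and 5.44% of all genes were. In all 3 pairs 4 of the 8 were higher and 3 were lower in the knockdown, against 22.3% and 19.7% of all genes, and 42.0% of all genes kept 1 direction. Calls moved with the libraries used. With pair 1 left out, 4 of the 8 were called higher by DESeq2 with the replicate term (9.24% of all genes) and 2 lower (6.32%), with pair 2 left out it called 0 (0.464% of all genes higher and 0.25% lower, 0.714% in all), and with pair 3 left out it called Epcam higher (0.636%) and Cdh2 lower (0.279%). DESeq2 without the term called Cdh2 alone, where 1.24% of all genes were called, 0.722% higher and 0.522% lower. Limma on replicates 2 and 3 only called 3, Cdh17 and Epcam higher (6.04% of all genes) and Cdh2 lower (3.57%), of 9.62% in all. The median log2 change was 0.35 over the 8 genes and 0.00 over all genes tested. The 8 genes were chosen with earlier results of these data known. The shares of all genes are given for scale, and the 8 were not tested as a set.

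**Figure D1:**
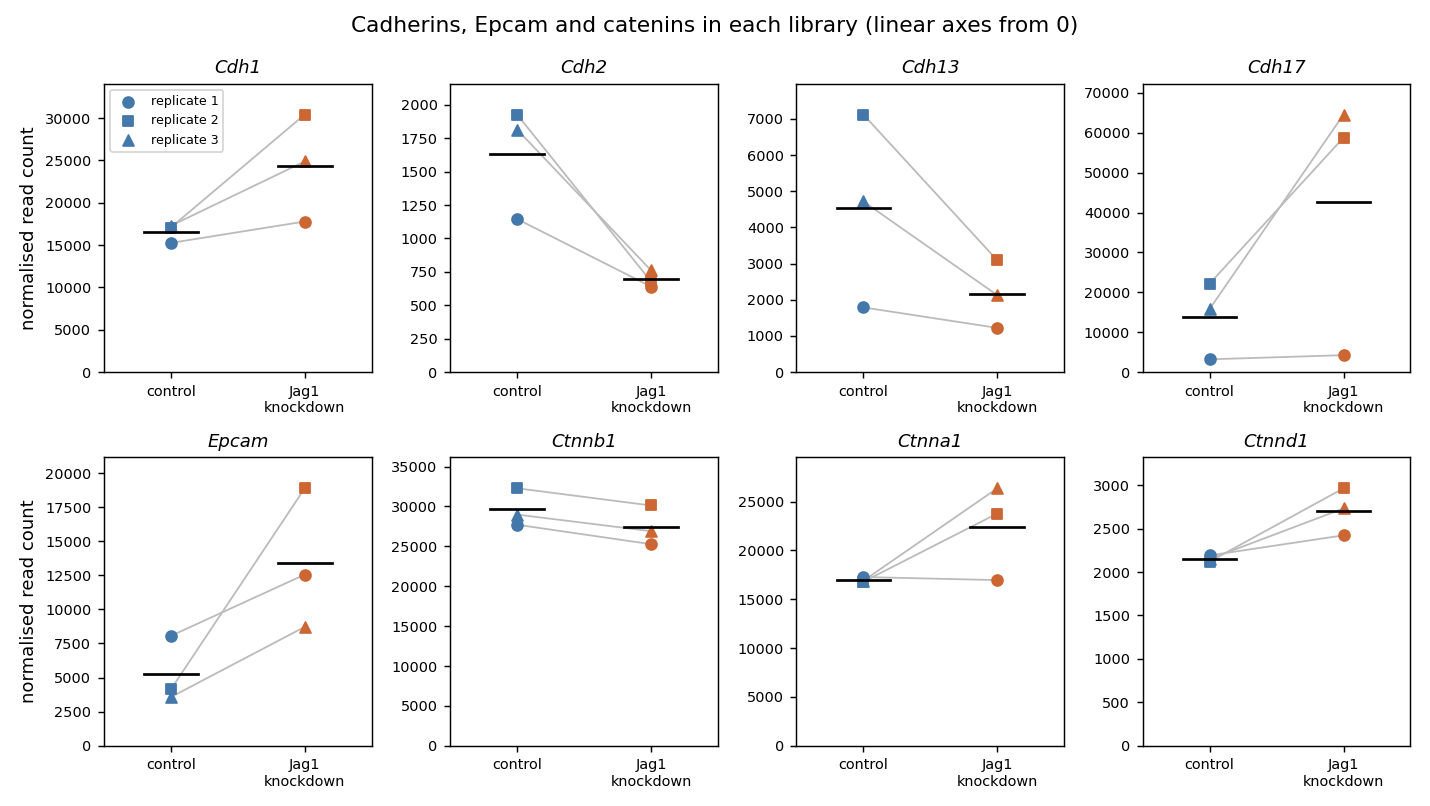
Normalised read count (y axes, linear, from 0) of each gene in the 3 control and 3 Jag1 knockdown libraries (x axis). Symbols mark the replicate number, grey lines join libraries of the same number and black bars are group means. All 3 knockdown points of Cdh2 lie below the lowest control at 1145, whereas Cdh17 is low in both replicate 1 libraries.

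E-cadherin was the more even of the cadherins among controls. Cdh1 (ENSMUSG00000000303, GRCm38 chromosome 8, 106603351 to 106670246, plus strand) had 15245, 17065 and 17267 normalised counts in controls 1, 2 and 3, against 17777, 30409.7 and 24872 in knockdowns 1, 2 and 3. Each knockdown lay above each control, but knockdown 1 did so by little. Means were 16526 ± 1114 and 24353 ± 6332, which is 1.47-fold. The log2 change was 0.53 in limma (SE 0.23, adjusted p = 0.696) and 0.53 in DESeq2 with the replicate term (SE 0.19, adjusted p = 0.0682), and the gene passed neither. Pairs 1, 2 and 3 gave 0.22, 0.83 and 0.53. With pair 1 left out, Cdh1 was called by DESeq2 with the replicate term at 0.68 (adjusted p = 0.00768), the single call among 20 fits, whose adjusted p reached 1.00.

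N-cadherin fell and had the smallest adjusted p of the 8 genes in DESeq2 with the replicate term. Cdh2 (ENSMUSG00000024304, chromosome 18, 16588877 to 16809246, minus strand) had 1145, 1927 and 1815 normalised counts in controls 1, 2 and 3. Knockdowns 1, 2 and 3 had 639, 678 and 761. The groups did not overlap, and the 3 knockdowns lay close together whatever their replicate number. The mean went from 1629 ± 423 to 693 ± 62.1, or 42.5% of the control. The log2 change was -1.20 (SE 0.22, adjusted p = 7.48e-06) in DESeq2 with the replicate term, -1.23 without it (adjusted p = 0.00491) and -1.20 in limma (SE 0.24, adjusted p = 0.604). Pairs gave -0.84, -1.51 and -1.25. Cdh2 passed in 6 of the 20 fits run, with adjusted p from 1.01e-07 to 1.00. Without pair 2, DESeq2 with the replicate term did not call it.

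The Cdh1 to Cdh2 ratio was higher in each knockdown library than in each control library. Per kb of exon, Cdh1 stood at 23.5, 15.6 and 16.8 times Cdh2 in controls 1, 2 and 3. In knockdowns 1, 2 and 3 it stood at 49.0, 79.1 and 57.6 times. The groups did not overlap, and pairs 1, 2 and 3 differed 2.09-fold, 5.06-fold and 3.44-fold. The mean log2 ratio of the counts went from 3.38 ± 0.31 to 5.10 ± 0.35, a difference of 1.73. Of this difference, 0.53 is the log2 change of Cdh1 and the rest the fall of Cdh2. No p is given, because both genes were chosen with results of these data known. Even in the knockdown Cdh2 had 552 to 996 reads a library, so both cadherins were measured in every sample.

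**Figure D2:**
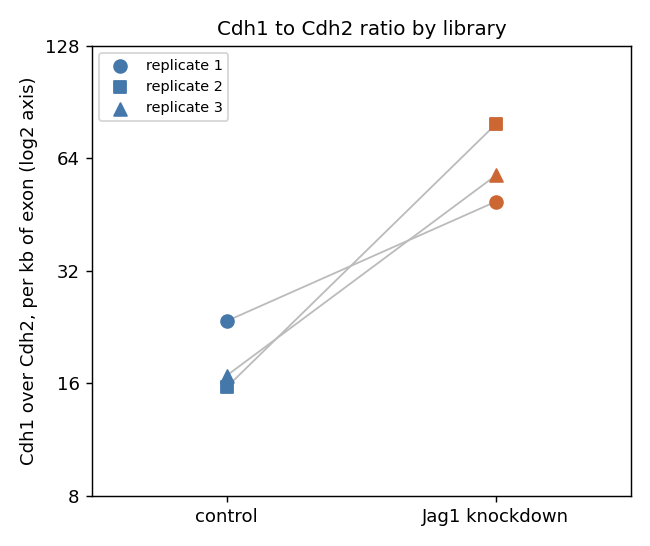
Ratio of Cdh1 to Cdh2, both as normalised counts per kb of exon (y axis, log2 scale), in each control and Jag1 knockdown library (x axis). Symbols mark replicate numbers and lines join libraries of the same number. The highest control, 23.5, lies below the lowest knockdown, 49.0.

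T-cadherin fell with a wide spread between replicate numbers. Cdh13 (ENSMUSG00000031841, chromosome 8, 118283733 to 119324921, plus strand) had 1787, 7119 and 4718 normalised counts in controls 1, 2 and 3, against 1220.0, 3088 and 2125 in knockdowns. The groups overlapped, since control 1 lay below knockdowns 2 and 3, but the knockdown was lower in each pair, by 0.55, 1.20 and 1.15 on the log2 scale. Means were 4541 ± 2671 and 2144 ± 934. DESeq2 with the replicate term gave -0.97 (SE 0.21, adjusted p = 3.30e-04) and limma -0.97 (SE 0.56, adjusted p = 0.764). The limma value was -1.53 without control 1, -0.54 without control 2 and -0.61 without knockdown 1. It passed in 2 of 20 fits, with adjusted p up to 1.00, and DESeq2 with the term lost it without pair 2 or pair 3. Cdh13 is also expressed by endothelium. The 3 endothelial markers with values, Tek, Tie1 and Egfl7, summed to 326 to 701 normalised counts in controls and 412 to 750 in knockdowns. Of these Egfl7 made up most, Tie1 stood at 1.25 to 36.9, and their part in the result was not tested.

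LI-cadherin rose, and it differed more by replicate number than by group. Cdh17 (ENSMUSG00000028217, chromosome 4, 11758147 to 11817895, plus strand) had 3186, 22188 and 15812 normalised counts in controls 1, 2 and 3. Knockdowns 1, 2 and 3 had 4233, 58815 and 64598. Both replicate 1 libraries were low, the groups overlapped, and the highest library held 20.3 times the count of the lowest. On the log2 scale replicates 2 and 3 lay 3.21 above replicate 1, and knockdown 1.28 above control. Pairs 1, 2 and 3 gave 0.41, 1.41 and 2.03, higher in the knockdown in 3 of 3. DESeq2 with the replicate term gave 1.29 (SE 0.30, adjusted p = 0.00107) and limma 1.28 (SE 1.20, adjusted p = 0.865). The limma value was 0.43 without control 1, 2.57 without knockdown 1, 0.67 without knockdown 2 and 0.60 without knockdown 3. On replicates 2 and 3 only, limma gave 1.72 (adjusted p = 0.011). The gene passed in 3 of 20 fits, with adjusted p up to 1.00, and DESeq2 with the term lost it without pair 2 (1.22, adjusted p = 0.0878) or pair 3 (0.91, adjusted p = 0.181).

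The summed level of the 4 cadherins per kb of exon depended on the replicate number. It was 4346, 9563 and 7954 normalised counts per kb in controls 1, 2 and 3, against 5020.4, 20153 and 20159.6 in knockdowns. In replicate 1 Cdh1 made up most of this sum, 76.7% in the control and 77.4% in the knockdown. In replicates 2 and 3 Cdh17 supplied 51.9% and 44.4% in controls and 65.2% and 71.6% in knockdowns. Cdh2 contributed 2.5% to 3.27% in controls and 0.417% to 1.58% in knockdowns, and here the groups did not overlap. A share falls when another cadherin rises, so the shares of Cdh2 and Cdh13 also carry the increase of Cdh17.

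**Figure D3:**
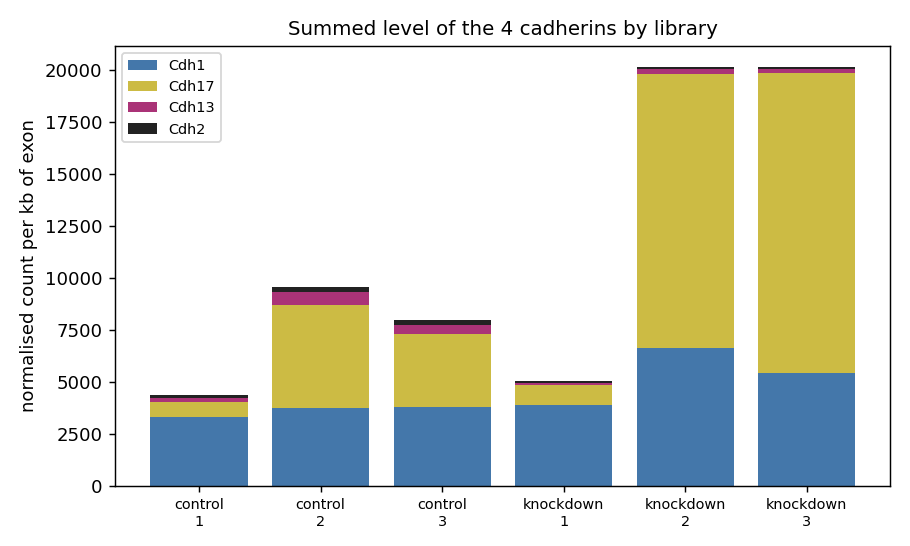
Stacked normalised counts per kb of exon (y axis, linear, from 0) of Cdh1, Cdh17, Cdh13 and Cdh2 in each library (x axis). Both replicate 1 bars are near 4346 and 5020.4 and mostly Cdh1, and the bars of knockdowns 2 and 3 are mostly Cdh17.

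The catenins had smaller log2 differences than the cadherins, and none of the 3 passed. Beta-catenin had the highest level per kb of the 8 genes in controls and the smallest change. Ctnnb1 (ENSMUSG00000006932, chromosome 9, 120929216 to 120960507, plus strand) had 27715, 32283 and 28984 normalised counts in controls 1, 2 and 3, against 25276, 30127 and 26908 in knockdowns. The groups overlapped, and the pairs gave -0.13, -0.10 and -0.11. Its log2 change was -0.11 in limma (SE 0.17, adjusted p = 0.925) and -0.11 in DESeq2 with the replicate term (SE 0.15, adjusted p = 0.77), and 0 of 20 fits called it. With libraries scaled to their spike-in RNAs, which moved the median of all genes to -0.18, Ctnnb1 stood at -0.29. Ctnnb1 shares 759 exon bases with Ulk4 on the opposite strand, and the library kit does not mark strand, so reads there cannot be told apart.

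Alpha-catenin did not pass, and its pairs disagreed in direction at -0.03, 0.50 and 0.64. Ctnna1 (ENSMUSG00000037815, chromosome 18, 35118859 to 35254779, plus strand) had 17271, 16791 and 16886 normalised counts in controls 1, 2 and 3, against 16956, 23772 and 26354 in knockdowns. Controls were even, and knockdown 1 lay among them while knockdowns 2 and 3 lay above. The log2 change was 0.37 in limma (SE 0.21, adjusted p = 0.754) and 0.37 in DESeq2 with the replicate term (SE 0.20, adjusted p = 0.303). DESeq2 with the term called it without pair 1 (0.57, adjusted p = 0.0272), the single call in 20 fits, whose adjusted p reached 1.00.

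p120-catenin was even within groups and did not pass. Ctnnd1 (ENSMUSG00000034101, chromosome 2, 84600071 to 84650765, minus strand) had 2191, 2120.1 and 2149 normalised counts in controls and 2422, 2964 and 2732 in knockdowns. The groups did not overlap, and the means of 2153 ± 35.9 and 2706 ± 272 differed 1.26-fold. Limma gave 0.32 (SE 0.15, adjusted p = 0.701), DESeq2 with the replicate term 0.32 (SE 0.18, adjusted p = 0.312), and 0 of 20 fits called it, with adjusted p from 0.119 to 1.00. The level of Ctnnd1 is uncertain. It shares 4482 of its 7319 exon bases with Gm28635, a gene model on the same strand that has no deposited values. How reads in shared exons were counted is not given in the sources used here.

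**Figure D4:**
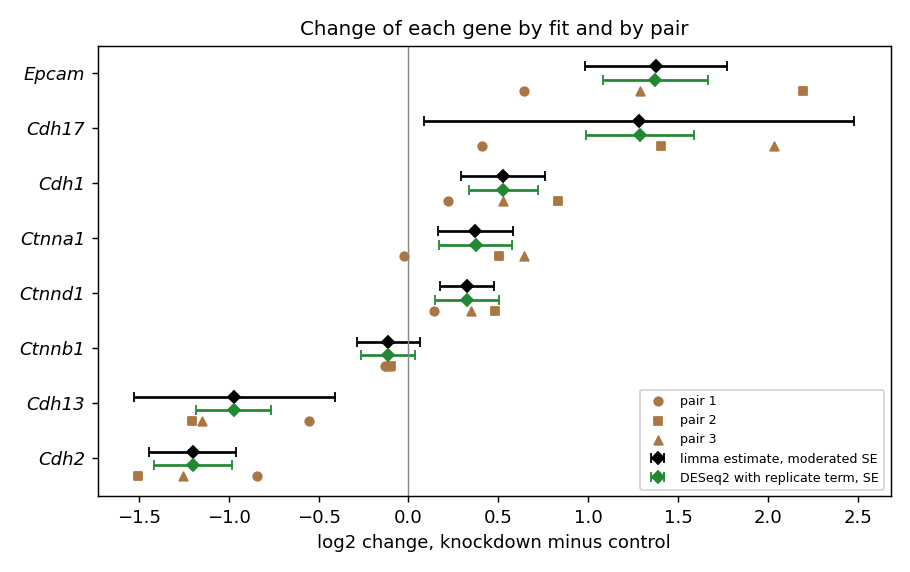
Log2 change, knockdown minus control (x axis), of each gene (y axis). Black diamonds are limma estimates with the moderated SE, green diamonds DESeq2 with the replicate term and its SE, and brown symbols the differences within pairs 1, 2 and 3. The limma bar of Cdh17 is wide (SE 1.20) where its DESeq2 bar is not (SE 0.30).

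Levels per kb set the genes in order, and the order differed between groups. In controls it ran from Ctnnb1 (5713 normalised counts per kb) through Cdh1 (3613), Cdh17 (3069), Ctnna1 (2643) and Epcam (2392) to Cdh13 (404), Ctnnd1 (294) and Cdh2 (202). The libraries of Cdh1 and Cdh17, of Cdh17 and Ctnna1, of Ctnna1 and Epcam, and of Cdh13 and Ctnnd1 overlapped. These neighbours therefore did not differ beyond their spread. The place of Ctnnd1 is uncertain in both groups, since it shares exon bases with Gm28635. In knockdowns Cdh17 (9510.2), Epcam (6098), Cdh1 (5324) and Ctnnb1 (5284) came first, each overlapping its neighbour. Ctnna1 (3480.2), Ctnnd1 (369.8), Cdh13 (191) and Cdh2 (85.9) followed. The first place of Cdh17 rests on knockdowns 2 and 3 (13146 and 14438). In knockdown 1 it stood at 946, below Ctnna1 at 2639. Ctnnb1 stood at 1.60, 1.67 and 1.48 times Cdh1 per kb in controls and at 1.25, 0.873 and 0.953 times in knockdowns, without overlap. Ctnna1 stood at 0.697 to 0.806 times Cdh1 in controls and 0.557 to 0.754 times in knockdowns, which overlapped.

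Epcam rose and was higher in each knockdown library than in each control library. Epcam (ENSMUSG00000045394, chromosome 17, 87635979 to 87651129, plus strand) had 8055, 4129.9 and 3566 normalised counts in controls 1, 2 and 3, against 12553, 18880.1 and 8720.0 in knockdowns. Unlike Cdh17, it was highest in replicate 1 among controls, and knockdown 3 lay close above control 1. Means were 5251 ± 2445 and 13384 ± 5131, or 2.55-fold, and the pairs gave 0.64, 2.19 and 1.29 on the log2 scale. DESeq2 with the replicate term gave 1.37 (SE 0.29, adjusted p = 2.83e-04), DESeq2 without it 1.35 (adjusted p = 0.111) and limma 1.37 (SE 0.39, adjusted p = 0.606). Epcam passed in 4 of 20 fits, with adjusted p from 7.87e-11 to 1.00. DESeq2 with the term kept the call without pair 3 (adjusted p = 0.022) and lost it without pair 2 (0.96, adjusted p = 0.107).

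The promoters of Epcam and Ctnnb1 are set side by side because the former gene rose and the latter had the smallest change of the 8. Both are the 250 bases before a RefSeq transcript start (GRCm38.p6), 5′ to 3′ on the plus strand. Windows were held for 3 of the 8 genes, Ctnnb1, Ctnnd1 and Epcam. Capitals mark E-boxes, the motif CANNTG bound by basic helix-loop-helix factors, which includes CAGGTG and its reverse complement CACCTG, bound by the EMT repressors of the Snail and Zeb families. The Epcam window, chr17:87635729-87635978, ends at the base before the annotated gene, and the Ctnnb1 window, chr9:120933150-120933399, lies in an intron of a Ctnnb1 transcript that starts further upstream.
Epcam: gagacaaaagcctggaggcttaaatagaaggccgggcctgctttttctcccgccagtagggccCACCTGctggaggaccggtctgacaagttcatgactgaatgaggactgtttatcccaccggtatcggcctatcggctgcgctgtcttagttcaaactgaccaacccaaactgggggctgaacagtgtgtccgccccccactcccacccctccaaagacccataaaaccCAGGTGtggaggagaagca
Ctnnb1: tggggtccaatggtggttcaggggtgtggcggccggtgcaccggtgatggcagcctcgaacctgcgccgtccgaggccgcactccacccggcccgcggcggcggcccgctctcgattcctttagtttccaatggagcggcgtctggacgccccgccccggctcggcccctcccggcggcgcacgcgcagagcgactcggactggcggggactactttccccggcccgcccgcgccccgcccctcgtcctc

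The Epcam window held 2 E-boxes, both of the CAGGTG form, beginning 187 and 19 bases before the start. The Ctnnb1 window held 0 E-boxes and 3 GC boxes (GGGCGG or its reverse complement CCGCCC). The Epcam window also held 1 GC box, beginning 58 bases before the start. A second Ctnnb1 window, which overlaps the first and is not printed, held 0 E-boxes and 2 GC boxes. Searched on both strands, CANNTG was found in 66.2% of 32851 promoter windows of this length, the CAGGTG form in 17.2%, and the GC box in 32.7%. Of the 2 Ctnnd1 windows, 1 held an E-box, of another form. These matches are letters in a window, and no binding was measured.

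The lists of other genes at the adherens junction were chosen with earlier results of these data known. Each list's counts in DESeq2 with the replicate term stand beside 4.54% of all genes called higher and 2.6% called lower. Among 47 other cadherins and protocadherins 14 had values and 13 were tested. In DESeq2 with the replicate term 3 rose, 1 fell and 9 did not pass, and limma called 0 (4 at an unadjusted p below 0.05). The median log2 change was 0.05. Those that rose were Cdhr5 and Cdhr2, cadherins that link the microvilli of the brush border, and Pcdh17. Cdhr5 had 2896, 1171 and 1390.2 normalised counts in controls and 4618, 6404 and 4282 in knockdowns, without overlap (1.58, SE 0.32, adjusted p = 9.34e-05). Cdhr2 resembled Cdh17 in being low in both replicate 1 libraries, with 61.3, 525 and 284 in controls and 69.3, 3355 and 1321 in knockdowns (1.76, adjusted p = 0.0015). The limma change of Cdhr2, 1.69, was 0.81 without control 1, 3.32 without knockdown 1 and 0.53 without knockdown 2. Pcdh17 stood at 205 in knockdown 1 and 194 in control 1, and at 162 and 184 in knockdowns 2 and 3 against 35.6 and 36.1 in their controls (1.53, adjusted p = 0.04), and its limma change was 2.32 without control 1. Pcdh9 fell from 14.1, 47.1 and 44.8 to 5.26, 2.46 and 2.29 normalised counts (-3.28, adjusted p = 0.0143), which is 17 to 41 reads in controls and 2 to 6 in knockdowns. Clstn1 and Cdhr5 had the highest levels per kb of the list, and Clstn1 stood at 0.11 in limma, a value that turned to -0.066 with spike-in scaling.

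Of the other catenin family 5 of 8 genes were tested, with a median of 0.50, and 1 rose. That was plakoglobin (Jup), the close relative of beta-catenin that serves both adherens junctions and desmosomes. Jup had 3513, 3498 and 3061 normalised counts in controls and 6273, 8974 and 8047 in knockdowns, without overlap. It changed by 1.20 in DESeq2 with the replicate term (SE 0.20, adjusted p = 5.27e-07), 1.20 in limma (SE 0.18, adjusted p = 0.604), and 0.84, 1.36 and 1.39 in pairs 1, 2 and 3. Whether its change differed from that of Ctnnb1 was not tested. Pkp4, an armadillo protein of junctions, was at 0.23 (adjusted p = 0.584 in DESeq2 with the replicate term).

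Nectins are immunoglobulin-type adhesion molecules that afadin ties to actin. Of the 5 genes tested here (Nectin1, Nectin2, Nectin3, Afdn, which encodes afadin, and the nectin-like receptor Pvr), with a median of 0.31, 2 rose in DESeq2 with the replicate term and 3 did not pass. Nectin3 and Afdn were at -0.24 and -0.23 in pair 1. Nectin2 went from 3377, 3651 and 3574 to 6005, 8238 and 4577 normalised counts (0.79, adjusted p = 0.00814). Pvr had 1139, 4035 and 4238 normalised counts in controls, against 1692, 7663 and 5488 in knockdowns, and the groups overlapped. It rose by 0.62 (adjusted p = 0.0226), and its limma change was 0.0031 without control 1, 0.95 without control 3, 1.27 without knockdown 1 and 0.18 without knockdown 2. Among 14 genes that link junctions to actin the median was -0.01, 2 rose and 12 did not pass. Shroom3, which recruits contractile actin to apical junctions, rose by 0.66 (adjusted p = 0.0171) and Vasp, an actin elongation factor, by 0.55 (adjusted p = 0.0301). Actn4 was at 0.43 (adjusted p = 0.133). None of the 13 tested genes of cadherin shedding and turnover passed in DESeq2 with the replicate term (0 called in limma, 0 at an unadjusted p below 0.05, median 0.21), and the sheddase Adam10 and the endocytic GTPase Arf6 stood at 0.29 and 0.42.

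Among genes of beta-catenin's destruction and nuclear action 13 of 16 were tested, with a median of -0.01. In DESeq2 with the replicate term 1 rose, 1 fell and 11 did not pass. Both were TCF factors, the DNA-binding partners of beta-catenin. Tcf7 had 1044, 951 and 852 normalised counts in controls and 506, 299 and 295 in knockdowns, without overlap (-1.41, SE 0.23, adjusted p = 5.70e-07). Tcf7l2 had 757, 675 and 724 in controls and 831, 1366 and 1771 in knockdowns (0.82, SE 0.27, adjusted p = 0.0421). Their limma adjusted p were 0.604 and 0.647. The kinase Gsk3a was at 0.12 and the nuclear cofactor Pygo2 at -0.09 in limma, and both signs turned in 1 of the alternatives.

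Partners and proteases of Epcam held the most calls of these lists. All 11 were tested, with a median of 0.54, and in DESeq2 with the replicate term 5 rose, 2 fell and 4 did not pass, where 7.14% of all genes were called. In limma 0 passed and 9 had an unadjusted p below 0.05. Cldn7, a claudin that binds Epcam, had 3002, 2101 and 1579.6 normalised counts in controls and 5085, 9043 and 6026 in knockdowns (1.60, SE 0.29, adjusted p = 4.64e-06). Matriptase (St14), a membrane protease that cleaves Epcam, went from 4410.1, 1489.6 and 1208 to 8984, 8300.4 and 6177 (1.96, SE 0.30, adjusted p = 4.54e-08). Its inhibitor Spint1 went from 3424, 2362 and 1881 to 5922, 6299 and 5065 (1.21, SE 0.21, adjusted p = 1.81e-06). For Cldn7, St14 and Spint1 the groups did not overlap. Prss8 also rose, by 1.18, and the 2 that fell were the adhesion receptor Cd44 (-0.64) and the protease Bace1 (-0.65), limma changes of 3 genes named after their values were seen. Tspan8 and Spint2, with the highest levels per kb of the list, stood at 0.21 and 0.41.

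Among the called genes of these lists named above, other than Prss8, Cd44 and Bace1, Jup, Tcf7, Cldn7, St14 and Spint1 were also called by DESeq2 with the replicate term when any 1 pair was left out. Cdhr5 and Nectin2 lost the call without pair 2, and Cdhr2, Pcdh17, Pvr, Shroom3, Vasp and Tcf7l2 lost it without pair 2 and without pair 3. Pcdh9 had no adjusted p in those fits.

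**Figure D5:**
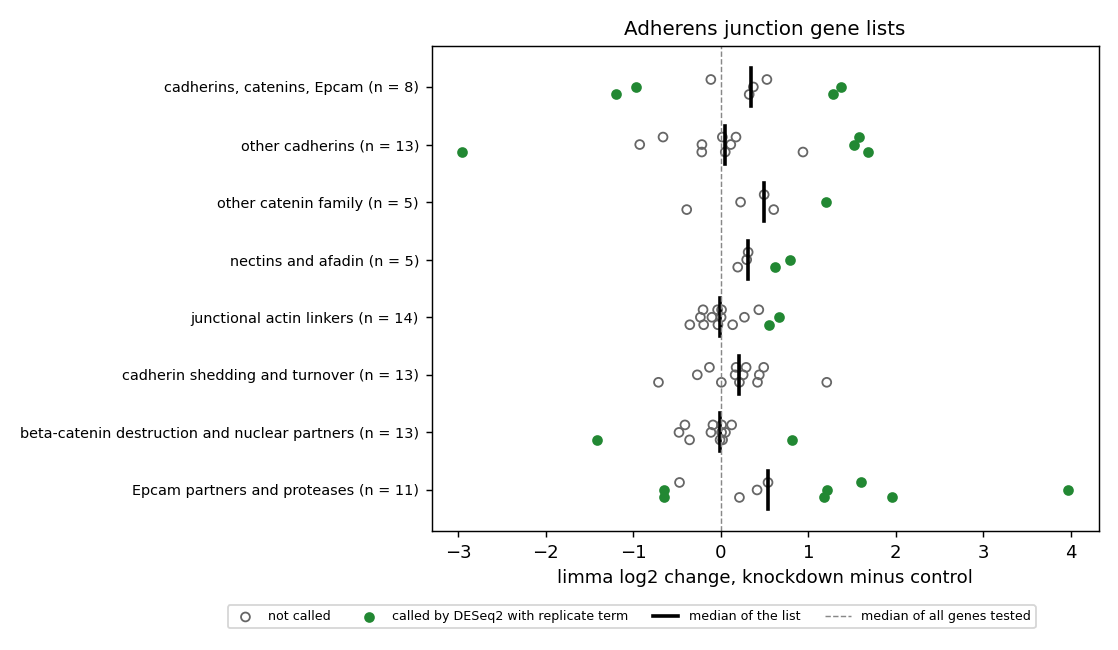
Limma log2 change, knockdown minus control (x axis), of each tested gene in the lists of adherens junction genes (y axis, with the number tested). Filled points were called by DESeq2 with the replicate term, black bars are list medians and the dashed line is the median of all 13997 genes. The medians run from -0.01 to 0.54, and the calls of Epcam partners and proteases lie on both sides of 0.

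The summed epithelial markers, mostly keratins, were higher in the knockdown in each pair, although the groups overlapped, with control 2 at 228074 and knockdown 1 at 215270 normalised counts. Not every marker was: in pair 3 Krt18 stood at 63304 in the control and 61007 in the knockdown, and Sox9 at 2600 and 1464. The part of these markers in the results was not tested. The mitochondrial share of reads was 0.595%, 1.55% and 2.03% in controls 1, 2 and 3, against 0.555%, 1.02% and 1.20% in knockdowns. Knockdowns 2 and 3, in which Cdh1, Cdh17 and Ctnna1 were highest, also differed most from their controls in that share, and its part in these results was not tested. In bulk RNA a lower count can come from fewer cells that express a gene or from less RNA per cell, which cannot be told apart.

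The genes whose pattern over the 6 libraries was nearest to that of a gene described here were found by the root mean square difference of log2 values centred on each gene's mean, among 11904 named protein-coding genes. For Cdh1 these were R3hdm4 (0.04), Htra1 (0.06), F11r (0.06), Ticam1 (0.07) and Trim47 (0.07), where the median gene was at 0.50. F11r encodes a junctional adhesion molecule. Ctnna1 and Ctnnd1 were at 0.17 and 0.19 from Cdh1, and Epcam at 0.67. For Cdh2 the nearest were Plagl2 (0.07), Zfp383 (0.11), Fut10 (0.12), Kctd15 (0.16) and Rab34 (0.16), against a median of 0.73, with Cdh13 at 0.52. For Epcam they were Crb3 (0.15), Aldh1l1 (0.18), Rnf183 (0.18), Icosl (0.20) and Cybrd1 (0.22), against a median of 0.91. Crb3 encodes an apical polarity protein. These distances describe 6 libraries that share replicate structure, and carry no p.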

How the data were processed

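The deposited values are normalised counts per gene and library, a signal that the authors made by dividing read counts by 1 size factor per library. The submitters' processing notes name the build GRCm38 and, among their tools, DESeq2 1.32.0, STAR 2.5.2b and Trimmomatic, and the counting tool and annotation are not given in the sources used here. Libraries were made from total RNA with TruSeq v2 reagents, per the labels' protocols, a chemistry that keeps no strand information. The 6 deposited tables were identical and 5 were left out. Within 0.001 of a read, 100% of values were whole multiples of 1 step, so whole reads were recovered, and on them DESeq2 with the replicate term called 1000 genes. The table held 14254 genes and 48 spike-in RNAs, and 14226 genes matched GENCODE M21, which gave positions and the union exon length used for levels per kb.

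The main test was limma-trend (limma 3.58.1, R 4.3.3) on log2(normalised count + 1), for the 13997 genes with at least 10 in at least 3 libraries, with Benjamini-Hochberg adjustment over all of them and a threshold of 0.05. The limma log2 changes are on that scale and understate low genes, while those given with a DESeq2 adjusted p can be DESeq2's own estimates. Alternatives were edgeR 4.0.16 and DESeq2 1.42.0 on the recovered reads, each with and without the replicate number as a term (DESeq2's adjusted p was NA for 543 genes with the term), spike-in scaling, other filters and pseudocounts, and libraries left out. Limma, edgeR and DESeq2, each with and without the replicate term, were tested on simulated data that held no differences between replicate numbers. The other alternatives were not tested this way. Deviations from group means correlated at r = 0.68, 0.57 and 0.44 for libraries numbered 1, 2 and 3, each over 0.1, so the numbers were treated as pairs, although control 3 with knockdown 2 (0.38) and control 2 with knockdown 3 (0.37) passed too. Deviations cancel within a group, and replicate 1 stood apart in both groups. Libraries 2 and 3 were therefore bound to correlate in any combination, and the check could not settle which of them belong together.

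The members and lists were chosen with earlier results of these data known. Named are the 8 genes, Jag1, up to 4 called genes with the largest change and the 2 with the highest level per kb of each list, and the 5 genes nearest in pattern to Cdh1, Cdh2 and Epcam. Promoter sequences are from RefSeq. A gene that the rule names is not reported here.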

Additional observations from a re-analysis of the deposited data

How the results depend on the processing

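Each of the 8 genes kept its direction in all 19 alternatives run. With spike-in scaling the limma changes of Cdh1, Ctnna1 and Ctnnd1 were smaller, at 0.35, 0.19 and 0.14. Those of Cdh17 and Epcam were 1.10 and 1.19, and those of Cdh2 and Cdh13 were -1.38 and -1.15. Limma without the replicate block called 0 of the 8, and the replicate block in limma or edgeR also called 0, with 2 genes higher and 0 lower of all genes in each. With DESeq2 the members called were 0 higher and 1 lower (all genes 101 and 73), with its replicate block 2 and 2 (all genes 636 and 364), and without pair 1, 2 or 3 they were 4, 0 and 1 higher and 2, 0 and 1 lower (all genes 1294, 65 and 89 higher and 884, 35 and 39 lower). Restricted to replicates 2 and 3, limma gave 2 and 1 (all genes 846 and 500), and with spike-in scaling 0 and 0 (all genes 77 and 39). Leaving out each library in turn in limma gave 0 members higher and 0 to 1 lower, the 1 being Cdh2 without control 1, and 0 to 210 genes higher and 0 to 84 lower. The cause was not tested. The log2 difference of the Cdh1 to Cdh2 ratio, 1.73, ran from 1.54 to 1.91 with each library left out and was 2.06 on replicates 2 and 3 and 1.73 with the replicate block. Clstn1 turned to -0.066 with spike-in scaling, -0.034 without control 2 and -0.167 without knockdown 1 (range -0.167 to 0.319 with each library left out), Gsk3a to -0.056 with spike-in scaling, and Pygo2 to 0.034 in DESeq2 with the replicate block without pair 3. Depth limits Pcdh9, at 2 reads in its lowest library, while the lowest count of the 8 genes was 552 reads.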
